A study of Camelus dromedarius with 4 samples.

Results

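The neurotrophins BDNF and NTF3, their receptors NTRK2, NTRK3, NGFR and SORT1, and the related growth factor GDNF were followed in the supraoptic nucleus of the dromedary camel (Camelus dromedarius) in winter and in summer. These 7 genes were chosen by symbol, without use of their values, from the 18152 gene symbols of the table of season means, and 5 of the 7 have a mean there. The supraoptic nucleus is the hypothalamic group of magnocellular neurones that makes vasopressin and oxytocin. Total RNA was sequenced from 2 winter and 2 summer libraries of hydrated, age-matched adult male camels of the Tergui breed, slaughtered in El Oued in January and in Ouargla in June. No other treatment of either group is described, and season, place and date of slaughter cannot be told apart. The sequencing compared 2 camels per season, so the tests measure the spread between 2 samples in each season.

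Neurotrophins are secreted growth factors that neurones use to support survival, dendrite growth and synaptic plasticity. They are made as proneurotrophins. After cleavage, BDNF binds the tyrosine kinase TrkB (NTRK2) and NTF3 binds TrkC (NTRK3). The receptor p75 (NGFR) binds each of the neurotrophins, and with sortilin (SORT1) it forms a receptor for the uncleaved forms. In the hypothalamus BDNF and TrkB are known for effects on magnocellular neurones and on water balance. GDNF belongs to a separate family that signals through GFRA co-receptors and the kinase RET.

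The count files hold reads on 64989 unnamed gene models, from 4379162 to 6902037 reads per library, and their models could not be matched to gene symbols. The values of named genes therefore come from the deposited season means, which are counts divided by a size factor (the relative depth of a library) and averaged over the 2 libraries of a season. Every such mean is a sum of whole reads, so the reads of each library were solved from it where a single solution existed. The libraries are named here by season and size factor, 1.33 and 0.946 in winter and 0.922 and 0.877 in summer, because the solution does not tell which replicate is which. In the count files summer replicate 2 had a read on 40178 gene models, against 49320 to 52456 in the other libraries. Which of the solved summer libraries that is cannot be told. A count of 0 allows up to 2.26 to 3.42 normalised reads in a library, for counting error only.

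The defining genes of the tissue were present in both seasons. AVP, the vasopressin precursor (listed as PUTATIVE_AVP), had a mean of 2560 normalised reads in winter and 11822 in summer. OXT, the oxytocin precursor, had means of 621 and 592. Reads shared between these similar genes were not measured. Both genes had several whole-read solutions in each season, so their spread between libraries is not known and they were not tested. Genes of other cell types were also present, among them MBP (7277 and 4571) of oligodendrocytes, and GFAP (14423 and 25074) and S100B (7490 and 11788) of astrocytes. Pituitary hormone genes were also read, with means of 1132 and 464 for GH1 and 738 and 1294 for POMC, so the dissected samples were not made of magnocellular neurones alone. In such bulk tissue, fewer cells of a type and less RNA per cell cannot be told apart.

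The ligands were near the limit of detection. BDNF, the ligand of TrkB, had 12 and 3 reads in the winter libraries of size factor 1.33 and 0.946, and 4 and 5 reads in the summer libraries of 0.922 and 0.877. These are 9.06 and 3.17 normalised reads in winter and 4.34 and 5.70 in summer. The highest and the lowest library were both winter libraries, so the seasons overlapped. The season means were 6.11 and 5.02, a log2 ratio of winter over summer of 0.28. BDNF lay under 10 normalised reads in both seasons, the minimum set for the main test. Without that minimum, edgeR gave it a log2 fold change of 0.37 (SE 1.00, adjusted p = 0.988). At this depth no seasonal difference was detectable.

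NTF3, the ligand of TrkC, was read in 1 of 4 libraries only, with 4 reads in the winter library of size factor 0.946. Those are 4.23 normalised reads, little above the 3.17 that a count of 0 allows in that library. The season means were 2.12 in winter and 0 in summer, so no fold is given. Without the minimum mean its edgeR adjusted p was 0.983. GDNF is listed without a mean in either season. SORT1, the sortilin receptor, is also listed without a mean. Symbols without a mean made up 11.6% of the list, 2099 in all, and include genes of general use in cells such as the signalling kinase MAPK3. A missing mean is therefore no measure of expression, and GDNF and SORT1 were not analysed further.

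**Figure D1:**
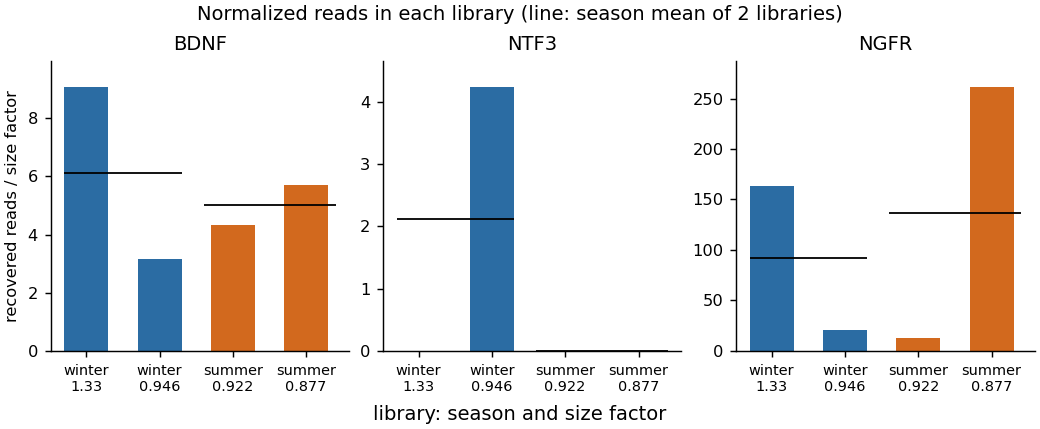
Normalised reads (reads divided by the size factor, vertical axes from 0) of BDNF, NTF3 and NGFR in each of the 4 libraries, with winter bars in blue, summer bars in orange and a line at each season mean. NGFR was high in 1 winter and 1 summer library and low in the others, and BDNF and NTF3 stayed under 10 normalised reads in each library.

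NGFR, the p75 receptor, varied more between libraries of the same season than between the seasons. It had 216 reads in the winter library of size factor 1.33 and 20 in that of 0.946, and 12 reads in the summer library of 0.922 and 229 in that of 0.877. Normalised, these are 163 and 21.2 in winter and 13.0 and 261 in summer. The highest and the lowest library were both summer libraries, and the winter values lay between them. NGFR differed 7.71-fold within winter and 20.1-fold within summer, whereas the season means of 92.1 and 137 differed 1.49-fold. The solved reads, fitted with the quasi-likelihood model of edgeR, gave a log2 fold change of winter over summer of -0.53 (SE 1.14, n = 2 libraries per season, 95% interval -3.19 to 2.12, Benjamini-Hochberg adjusted p = 0.983).

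A single library turned the direction of NGFR. Without the summer library of size factor 0.877 the log2 fold change was 2.83, with an edgeR adjusted p of 0.000929, in a fit in which 2.95% of all genes tested passed the adjusted threshold. Without the summer library of 0.922 it was -1.49, with an edgeR adjusted p of 0.141, in a fit in which 3.51% of all genes passed. Without the winter library of 1.33 it was -2.68, and without that of 0.946 it was 0.25. In each of these fits the lone library of a season is assumed to vary like the pair of the other season. When the 2 libraries with high NGFR were compared with each other the log2 ratio of winter over summer was -0.68, and between the 2 libraries with low NGFR it was 0.70, both without a test.

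The genes with a pattern most like NGFR over the 4 libraries were SOX9 and SCGN. Likeness was the Euclidean distance between log2 values (normalised reads plus 0.5, centred on each gene's mean) among 3650 genes with a mean of at least 50, and it was 1.61 for SOX9, a transcription factor of glia and neural progenitors, and 1.70 for SCGN, a calcium-binding protein of neuroendocrine cells. SOX9 had 111 and 32.8 normalised winter reads and 16.3 and 95.7 summer reads. SCGN had 43.0 and 29.6 in winter and 6.51 and 132 in summer. Both genes were higher in the winter library of 1.33 and the summer library of 0.877 than in the other libraries. That order was found for 24.8% of the 7654 genes tested. A gap as large as in NGFR, in which the lower of the high pair was 7.71-fold above the higher of the low pair, was found for 9 of the 7654 genes, NGFR included.

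In adult brain NGFR is known as a gene of basal forebrain cholinergic neurones, which lie in front of and above the supraoptic nucleus. A list of 8 cholinergic genes was therefore set beside NGFR after its values were seen. All 5 of those with recovered reads were higher in the 2 libraries with high NGFR than in the others, an order found for 24.8% of all genes tested. SLC5A7, the choline transporter, gave 106 and 20 winter reads and 1 and 149 summer reads. CHAT, which makes acetylcholine, gave 26 and 12 winter reads and 0 and 38 summer reads, and SLC18A3, the vesicular acetylcholine transporter, 38 and 2 against 0 and 32. A count of 0 in the summer library of 0.922 was not particular to these genes. AADACL2 gave 26 and 49 winter reads and 0 and 63 summer reads, and AGXT2 gave 10 and 17 against 0 and 44.

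Of the transcription factors on the list, the 2 with recovered reads, LHX8 and ISL1, were also higher in the 2 libraries with high NGFR. LHX8 gave 85 and 47 winter reads and 0 and 162 summer reads, and ISL1 gave 21 and 9 winter reads and 7 and 19 summer reads. Summed over the 5 genes, the level was 208 and 95.2 normalised reads in winter and 8.68 and 456 in summer. Of the other genes on the list, ACHE and GBX1 had no single solution and NKX2-1 is not listed. The season means of ACHE were 247 in winter and 176 in summer and those of GBX1 116 and 58.0, higher in winter, whereas the means of the 5 genes were higher in summer. The share of a gene's normalised reads that fell in the 2 high libraries was 92.5% for NGFR, 91.8% for SLC5A7, 96.9% for SLC18A3, 83.2% for CHAT, 83.3% for LHX8 and 68.7% for ISL1, against 66.3% for BDNF. BDNF, with few reads, and the neuronal gene GAD2 were also higher in these 2 libraries than in the others. The order was thus not particular to the cholinergic genes. The part of cholinergic neurones in the NGFR values was not tested.

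**Figure D2:**
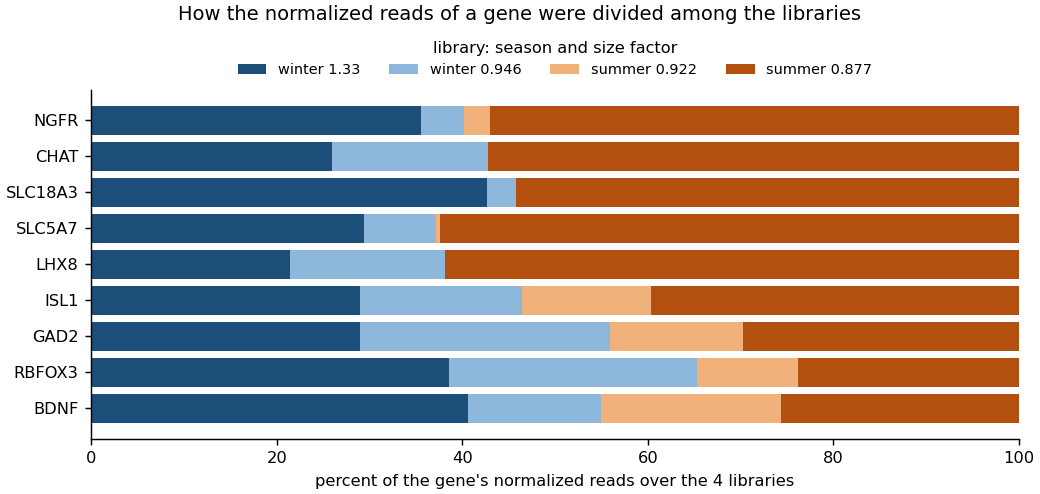
Division of each gene's normalised reads among the 4 libraries, in percent of their sum (horizontal axis, 0 to 100), for NGFR, 5 cholinergic genes, the neuronal genes GAD2 and RBFOX3, and BDNF. The darkest blue and darkest orange segments, the winter library of size factor 1.33 and the summer library of 0.877, together hold 92.5% of NGFR but 58.8% of GAD2, 62.4% of RBFOX3 and 68.7% of ISL1. GAD2 and BDNF were also higher in these 2 libraries than in the others, and RBFOX3 was not.

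NGFR is also known as a gene of Schwann cells, fibroblasts and some glia, and markers of these cells were read in the same libraries. None of the 3 Schwann cell genes with recovered reads, of 4 on the list, and none of the 5 fibroblast genes was high in the 2 libraries with high NGFR. Summed over these genes, the Schwann cell level was 38.5 and 57.1 in winter and 147 and 44.5 in summer, highest where NGFR was lowest, and the fibroblast level was 263 and 250 in winter and 365 and 284 in summer. Of the 3 recovered astrocyte genes, of 7 on the list, 2 were high in the libraries with high NGFR, an order found for 24.8% of all genes tested. The 3 astrocyte genes summed to 334 and 157 in winter and 137 and 296 in summer. Of the 2 neuronal genes with recovered reads, of 8 on the list, 1 had that order, GAD2. The 2 neuronal genes summed to 181 and 155 in winter and 78.1 and 164 in summer. The part of these cell types in the NGFR values was not tested.

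NTRK2, the TrkB receptor, had season means of 787 normalised reads in winter and 676 in summer, a log2 ratio of 0.22. Among the 16049 symbols with a usable mean it ranked 834 in winter and 1004 in summer, a place that also depends on transcript length. Its reads had 5 whole-number solutions in winter and 2 in summer. The winter solutions ran from 97.3 and 1476 normalised reads to 1348 and 225 in the libraries of size factor 1.33 and 0.946. The summer solutions were 451 and 902 or 1008 and 344 in the libraries of 0.922 and 0.877. In each of these solutions the 2 libraries of a season differed by 2.00-fold to 15.2-fold.

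NTRK2 thus varied 2.00-fold or more within each season, against 1.16-fold between the season means. The seasons overlapped in all 10 combinations of solutions. Over these combinations edgeR's quasi-likelihood test gave log2 fold changes of 0.21 to 0.22, with an SE of 0.57 to 1.07, p of 0.711 to 0.848 and adjusted p of 0.986 to 0.989. The direction is that of the deposited means, and with 1 library left out it ran from -2.80 to 1.19. In 3 of the 10 combinations NTRK2 was high in the same 2 libraries as NGFR, so the means do not tell whether the receptors vary together.

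**Figure D3:**
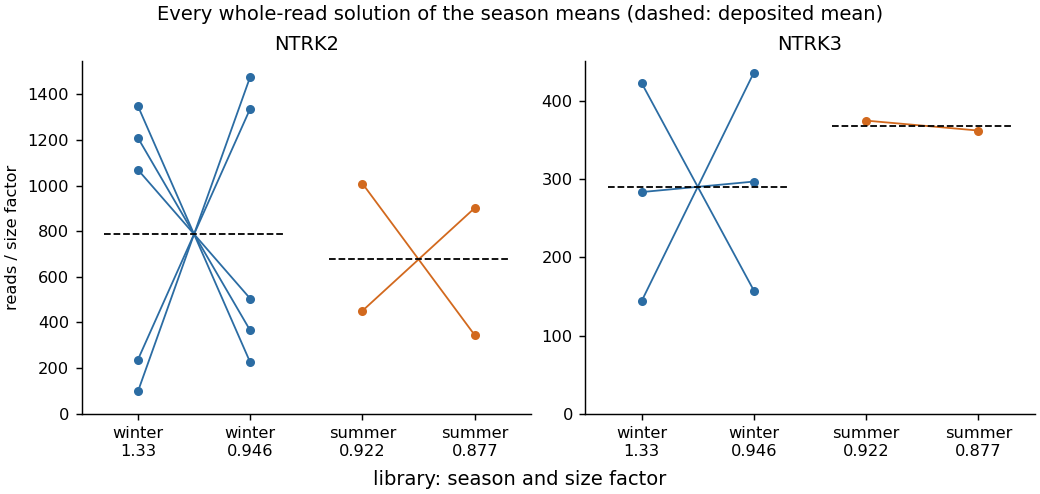
Whole-read solutions of the season means of NTRK2 and NTRK3, as normalised reads (vertical axes from 0) in the 2 winter (blue) and 2 summer (orange) libraries, with a line joining the libraries of 1 solution and a dashed line at the deposited mean. No solution of NTRK2 puts its libraries close together, whereas the summer libraries of NTRK3 lie at 375 and 362.

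NTRK3, the TrkC receptor, had a lower mean in winter, 290 against 369 normalised reads, a log2 ratio of -0.34. The summer reads had a single solution, 346 and 318 reads or 375 and 362 normalised reads. The winter reads had 3 solutions, which were 144 and 437, 284 and 297, or 423 and 158 normalised reads in the libraries of 1.33 and 0.946. In 1 of these 3 solutions both summer libraries lay above both winter libraries, and in the others the seasons overlapped. Non-overlapping seasons were found for 30.5% of all genes tested. The edgeR quasi-likelihood test gave log2 fold changes of -0.35 to -0.34 over the solutions, with an SE of 0.36 to 0.55, p of 0.367 to 0.540 and adjusted p of 0.982 to 0.983. With 1 library left out the value ran from -1.35, without the winter library of 0.946, to 0.24, without that of 1.33. None of the 3 solutions put NTRK3 high in the 2 libraries with high NGFR.

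Over the 7 genes, 0 passed an adjusted p of 0.05 and 0 passed the rule of the study, an unadjusted p under 0.05 with more than 2-fold difference. Of these, NGFR, NTRK2 and NTRK3 reached the minimum mean for the test. Of the 7654 genes in the fit, 0% passed the adjusted threshold, 1.99% an unadjusted p under 0.05 and 1.67% the rule. The exact test of edgeR and DESeq2 each called 1 gene at an adjusted p of 0.05, which was none of the 7. In the season means, 7.26% of 13808 symbols differed by more than 2-fold, and 0 of the members did. With 2 libraries against 2, an exact two-sided permutation test cannot give a p under 0.333.

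**Figure D4:**
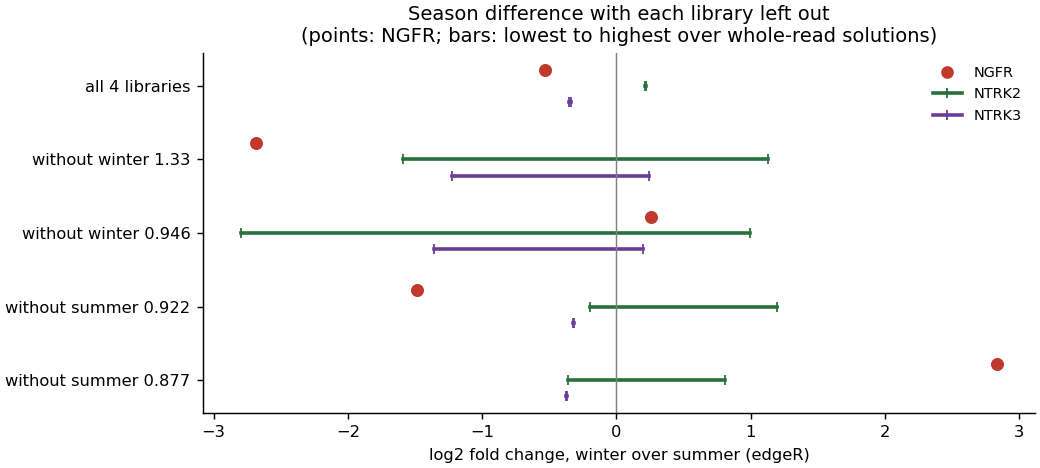
Log2 fold change of winter over summer from edgeR for NGFR (points), NTRK2 and NTRK3 (bars from the lowest to the highest value over their whole-read solutions), with all 4 libraries and with each library left out. NGFR ran from -2.68 to 2.83, and bars of NTRK2 crossed 0 for each library left out.

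The wider pathway was described over 101 other genes in 8 roles, of which 80 had a winter or summer mean of 10 or more. In the season means 3 of the 80 were more than 2-fold higher in winter, against 2.72% of all symbols, and 5 were more than 2-fold higher in summer, against 4.53%. Reads could be tested for 29 of the 101 genes, with a median log2 fold change of -0.01 against -0.11 for all genes tested. By the rule of the study 2 of these were higher in winter, EGR1 and FRS3, and 0 were higher in summer, against 0.849% and 0.823% of all genes tested (65 and 63 genes, or 122 and 46 when libraries were scaled by total recovered reads). At an adjusted p of 0.05 there were 0.

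EGR1, an activity-induced transcription factor that Trk signalling switches on, had 64.1 and 28.6 normalised winter reads and 18.4 and 11.4 summer reads. Both winter libraries were above both summer libraries, and 30.5% of all genes tested had no overlap in either direction. The edgeR log2 fold change was 1.65 (SE 0.68, adjusted p = 0.982). FRS3, an adaptor that couples Trk receptors to the MAP kinase pathway, had 64.9 and 40.2 normalised winter reads and 16.3 and 23.9 summer reads, again without overlap, and its edgeR log2 fold change was 1.40 (SE 0.57, adjusted p = 0.982). Without the winter library of size factor 1.33 or that of 0.946, neither gene had an unadjusted p under 0.05, nor had FRS3 without the summer library of 0.922, and the lowest log2 fold changes with 1 library left out were 0.93 for EGR1 and 1.00 for FRS3.

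Among the other receptors and co-receptors the most abundant were PTPRS, KIDINS220 and TNFRSF19. PTPRS, a receptor phosphatase that acts on Trk receptors, had means of 1544 in winter and 1052 in summer, and KIDINS220, a scaffold of Trk and p75, 526 and 416. TNFRSF19, a relative of p75, had 63.4 and 46.5 normalised winter reads and 80.2 and 108 summer reads. Both of its summer libraries were above both winter libraries, and 30.5% of all genes tested had no overlap in either direction. The edgeR test did not pass the threshold (log2 fold change -0.77, SE 0.39, adjusted p = 0.982). LINGO1, a p75 co-receptor, had 43.0 and 12.7 in winter and 16.3 and 16.0 in summer, with overlap.

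The sortilin family, sorting receptors related to SORT1, had no member past 2-fold. SORL1 had means of 786 in winter and 679 in summer, SORCS2, which binds proBDNF together with p75, 702 and 437, and SORCS3 224 and 276. Each had more than 1 whole-read solution in winter and was not tested.

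GDNF signalling was represented by its receptors. RET, the signalling kinase, had 63.4 and 13.7 normalised winter reads and 11.9 and 50.2 summer reads. RET was thus high in the same 2 libraries as NGFR, an order found for 24.8% of all genes tested. Its seasons overlapped (edgeR log2 fold change 0.38, SE 0.86, adjusted p = 0.984). GFRA1, the co-receptor of GDNF, had 52.1 and 45.5 in winter and 54.2 and 27.4 in summer. GFRA2, the co-receptor of neurturin, had 62.6 and 126 in winter and 55.3 and 105 in summer, and NCAM1, an alternative receptor of GDNF, had means of 1093 and 874. None of these differed by more than 2-fold between season means. GFRA3, the artemin co-receptor, had means of 10.3 and 23.2, with 39.9 normalised reads in the summer library of 0.877 and 6.51 in that of 0.922, and its edgeR adjusted p was 0.982.

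Enzymes that cut proneurotrophins, and their inhibitors, gave 3 of the 5 genes that were more than 2-fold higher in the summer means. These were 3 of the 11 genes of the role with the minimum mean, against 4.53% of all symbols. PCSK1, a prohormone convertase of the secretory granule, had 41.5 and 24.3 normalised winter reads and 82.4 and 55.9 summer reads. Its seasons did not overlap, as in 30.5% of all genes tested, and it did not pass the threshold (edgeR log2 fold change -1.05, SE 0.48, adjusted p = 0.982). PLG, the precursor of plasmin, had means of 13.5 and 36.1, and MMP7, a matrix protease, 2.94 and 11.4. For both the summer library of 0.877 was the highest, with 59.3 and 22.8 normalised reads. The most abundant genes of the role were PLAT, the tissue plasminogen activator, with means of 716 and 805, the carboxypeptidase CPE with 625 and 563, and the convertase PCSK6 with 502 and 462.

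**Figure D5:**
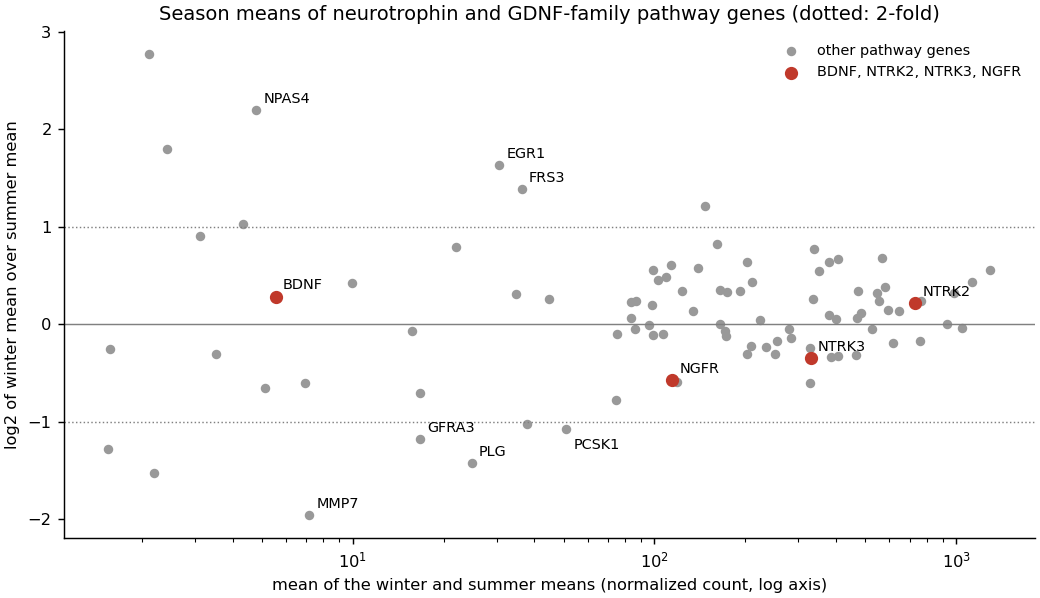
Log2 ratio of the winter mean over the summer mean (vertical axis) against the average of both means (normalised count, log axis) for the 4 members with a ratio (red) and other pathway genes (grey), with dotted lines at 2-fold. The members lie between -0.57 and 0.28, and NTF3 and the other genes with a mean of 0 in a season are not drawn.

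Downstream of the Trk receptors, 34 of 41 genes had the minimum mean, and 21 of these had the higher mean in winter and 13 in summer. FRS3 alone was past 2-fold, higher in winter, against 2.72% of all symbols. RPS6KA1, a kinase of the MAP kinase pathway, had means of 1295 in winter and 956 in summer, PIK3R1, the regulatory subunit of phosphoinositide 3-kinase, 1029 and 1054, and SOS2, an activator of RAS, 932 and 928. Of 12 genes of p75 signalling with the minimum mean, 7 were higher in winter and 5 in summer, none past 2-fold. MAPK8, the stress kinase JNK, had means of 362 and 452, MAGED1, a p75-binding protein, 498 and 313, and RHOA, the GTPase that p75 regulates, 341 and 430.

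Of the genes that drive or answer neurotrophin transcription, 2 of 9 with the minimum mean were past 2-fold, both higher in winter, with EGR1 among them. Of all symbols with that mean, 2.72% were more than 2-fold higher in winter. NPAS4, an activity-dependent transcription factor of BDNF, was under the minimum mean, with 11 and 7 winter reads and 0 and 3 summer reads. VGF, a secreted peptide precursor induced by neurotrophins, had means of 194 and 154, HOMER1, a synaptic scaffold, 215 and 253, and SLC12A5, the chloride transporter KCC2 that BDNF regulates, 206 and 117. FOS and ARC overlapped between the seasons.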

How the data were processed

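The authors aligned reads of stranded, ribosomal RNA-depleted libraries to their own assembly with TopHat, and the deposited count files hold HTSeq counts per gene model. Models carry no names and could not be matched to symbols. In the deposited season table the authors gave a signal (mean count over DESeq size factors), edgeR's ratio of winter over summer and its p-value. The ratio and p-value are findings of the authors and were not used.

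Whole reads per library were solved from the season means. All 16049 symbols had a solution (100.0%), and 9895 a single one. The scripts were tested on simulated data. For 7654 symbols that had a single solution and reached a mean of 10 in winter or summer, edgeR 4.0.16 was run (quasi-likelihood test, size factors from the solution, Benjamini-Hochberg adjustment) in R 4.3.3. NTRK2 and NTRK3, with several solutions, were fitted once for each combination, and other genes with several were not tested. Single solutions are rarer at high means, since every symbol has 1 only below a mean of 100. The common coefficient of variation was 0.459. Alternatives used DESeq2 1.42.0, limma 3.58.1, other scalings and filters.

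Named were all 7 members, pathway genes past the rule or an unadjusted p under 0.05, the 3 of each role with the highest mean, the 2 genes most like NGFR (the only member with solved reads and the minimum mean), AVP, OXT and leading markers. RET, LINGO1, TNFRSF19, GFRA3, PCSK1, PLG, MMP7, NPAS4, FOS, ARC, MAPK3 and the cholinergic and CNTF genes were named after their values were seen. Some genes that the rule names are not reported here. The members and lists were chosen with earlier results of these data known. Intervals and floors cover counting error only, and the 2 libraries per season limit precision. Figures were drawn with matplotlib 3.10.9.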

Additional observations from a re-analysis of the deposited data

How the results depend on the processing

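The limits are 2 libraries per season, reads solved from means in place of deposited counts, and no single solution for NTRK2 and NTRK3. Leaving out 1 library moved NGFR from -2.68 to 2.83 (log2 fold change), the lowest solution of NTRK2 from -2.80 to -0.20, the lowest solution of NTRK3 from -1.35 to -0.32 and its highest from -0.37 to 0.24. With limma-voom NGFR was 0.26 and the lowest solution of NTRK2 -0.71. With both libraries of high NGFR left out, an alternative chosen after seeing the data, NGFR was 0.70. The other scalings, filters and tests kept the direction of NGFR and of both ends of NTRK2 and NTRK3. Members past an adjusted p of 0.05 ran from 0 to 1 with 1 library left out, and past the rule of the study from 0 to 1. Pathway genes past the rule numbered 2, but 1 with edgeR's exact test, 0 with DESeq2, 1 with limma-voom, 0 to 7 with 1 library left out, and 8 past 2-fold in the season means. Pathway genes past an adjusted p of 0.05 ran from 0 to 2 with 1 library left out. Genes past the rule among all tested numbered 128, against 59 with DESeq2, 83 with limma-voom, 80 with a minimum mean in both seasons and 35 to 1161 with 1 library left out. The causes were not tested. No paired analysis was possible because the winter and summer camels were different animals, slaughtered in January and in June. Levels of members relative to each other were not computed, since no transcript lengths of the authors' assembly were used here.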

Other observations

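The CNTF and LIF family, cytokines that act on neurones and glia through other receptors than neurotrophins, was looked at after the values were seen. CNTFR, the receptor of ciliary neurotrophic factor, had a mean of 474 normalised reads in winter and 209 in summer, 2.27-fold higher in winter, against 2.72% of all symbols more than 2-fold higher in winter. Its winter reads had 2 solutions and it was not tested. CNTF itself gave 11 and 6 winter reads and 4 and 5 summer reads, under the minimum mean. OSMR, the receptor of oncostatin M, had 61.1 and 44.4 normalised winter reads and 94.3 and 77.5 summer reads, with both summer libraries above both winter libraries, as in 30.5% of genes tested with no overlap in either direction. LIF, LIFR, CLCF1 and OSM are listed without a mean.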
